A study of Homo sapiens with 10 samples.

Results

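The gene clusters listed on either side of a candidate target of the activators were examined as its listed neighbours. The candidate cluster, of 4 transcripts with a mean length of 870 nt, was high in cells that received VPR, SAM or Suntag and at or near 0 in the other groups. The files hold 31848 numbered clusters, and the neighbours are those within 150 numbers of the candidate. The candidate and 4 clusters with a transcript identifier between uc001mae and uc001mam were left out, so that 296 members remained, 147 listed before the candidate cluster and 149 after it. The choice used no measured value of the members, while the candidate itself was picked from these data. Of the 296 members, 103 held at least 50 expected counts summed over the 10 libraries and were tested, and 193 held fewer.

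Poly(A) RNA was sequenced from HEK293T, a line derived from human embryonic kidney, after lipid transfection with a guide RNA directed at the fetal globin gene HBG1. Each of the 5 groups held 2 libraries. In 4 groups the cells also received an activator built on catalytically dead Cas9, which was VP64, VPR, SAM or Suntag, and the control group was labelled as guide only. All 10 libraries carry the label of the same cell line, and the labels do not say if a group's 2 libraries are from different cultures. The p-values therefore reflect library-to-library spread only, and part of it may be technical.

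Dead Cas9 binds the DNA that its guide matches without cutting it, and an activation domain fused to it or recruited to it brings in the transcription machinery. VP64 is a small domain of viral origin. VPR adds the p65 and Rta domains to it. SAM brings extra domains to hairpins built into its guide, and Suntag carries a peptide array to which many VP64 units bind. Globin genes lie in clusters of related genes that share distant enhancers, and they are normally silent in kidney cells, and the comparison asks whether genes around an activated one move with it.

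The numbering is taken to follow the transcript identifiers of the UCSC set. Of the 301 clusters in the window, 206 had a first identifier with the prefix uc001. Among these, 202 of the 205 steps from one to the next went up, and the order of the others was not checked. Place in the list is used below as a stand-in for order along a chromosome, and 1 place is 1 cluster number. The files give no coordinates, so distance in bases is not known, and adjacent clusters may overlap. Of the members' 756 transcript identifiers 0 matched the RefSeq name table, and the files do not pair them with names. Members are therefore described by number, transcript length and level.

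Libraries held between 3316534 expected counts, in VP64 replicate 2, and 7447949, in VPR replicate 2. The members together held 0.719 ± 0.00817% of the counts in the control (SD, n = 2 in every group). The share was 0.741 ± 0.00185% in VP64, 0.760 ± 0.00502% in VPR, 0.760 ± 0.00171% in SAM and 0.732 ± 0.00392% in Suntag. Both control libraries, at 0.713% and 0.725%, lay below the lowest activator library, at 0.729%. In CPM, which scales counts to the library's summed expected counts, these shares were 7131, 7246 and 7293. A two-sided exact permutation test of 2 libraries against 2 cannot go below p = 0.333, which each of the 4 groups gave here. That test could not pass a threshold of 0.05, and no other test of the shares was run. The share is a sum, so abundant members weigh most in it. Cluster 4109, 123 places before the candidate cluster, averaged 348 CPM in the control. It averaged 486 in VP64, 518 in VPR, 408 in SAM and 413 in Suntag. A cluster of 3800 nt averaged 884 CPM in the control and 1036 in SAM, but 774, 766 and 851 in VP64, VPR and Suntag. Shares without these clusters were not computed, so a rise of the members as a set is not shown.

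The members nearest to the candidate cluster were almost silent in every group. None of the 7 members listed within 10 places before it and none of the 9 within 10 places after it reached the minimum for a test, and 7 and 8 of these held 0 counts in all 10 libraries. The 4 clusters left out besides the candidate also lie within 10 places of it. Their values are not given here, so not every adjacent cluster is described. The nearest tested members lay 28 places before and 15 places after. Farther out, 10 of 40 members at 11 to 50 places before and 12 of 40 after were tested, and at 51 to 150 places 42 of 100 and 39 of 100. Over the whole window 34.8% of members were tested and 40.9% had 0 counts throughout, against 42.7% and 36.3% of all clusters.

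**Figure D1:**
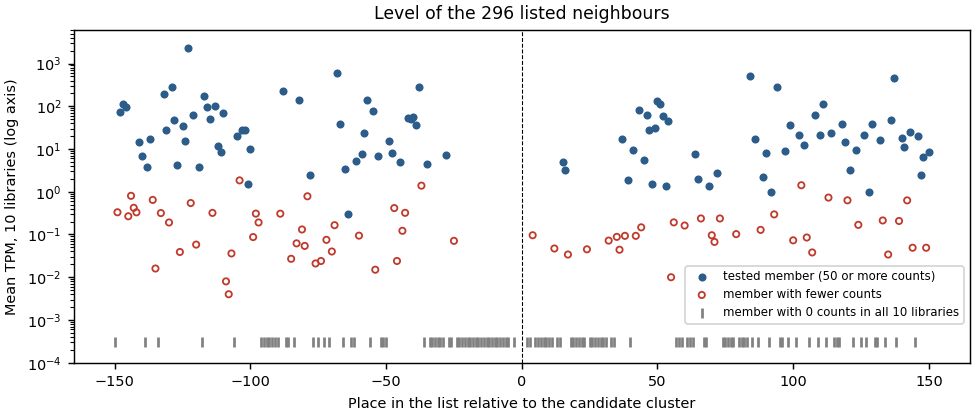
Mean TPM over the 10 libraries (log axis) of the 296 members by place in the list relative to the candidate cluster (dashed line). Filled points are the 103 tested members, open points members with fewer than 50 counts, and ticks at the foot the 121 members with 0 counts in all libraries, which fill most of the stretch from 28 places before to 15 places after.

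The 37 members between the 2 nearest tested ones, a stretch defined after their values were seen, held few counts in any group. The stretch ends where a member reaches 50 summed counts, so low counts in it follow from how it was drawn, and the groups are described without a comparison. Together they held 9 counts in all 10 libraries, all of them in 3 clusters, and the other 34 held none. Summed over the stretch there were 1 and 1 counts in the VP64 libraries, 0 and 1 for VPR, 1 and 2 for SAM, 0 and 1 for Suntag, and 1 and 1 for the control. The summed level of the stretch was 0.381 CPM in SAM (95% exact Poisson interval 0.0786 to 1.11) and 0.186 CPM in the control (0.0226 to 0.673). It was 0.231 CPM in VP64 (0.0279 to 0.833), 0.0800 CPM in VPR (0.00203 to 0.446) and 0.0884 CPM in Suntag (0.00224 to 0.492). CPM scales counts to the library's summed expected counts, and these intervals cover counting error only. The candidate cluster, inside the same stretch, stood at 75.7 and 66.5 CPM for the SAM libraries.

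Of the 3 clusters of the stretch that held any counts, the cluster 25 places before held 5 counts, 1 each in VP64 replicate 1, VPR replicate 2, SAM replicate 2 and both control libraries. The cluster 4 places after held 2 counts, 1 each in VP64 replicate 2 and Suntag replicate 2. The cluster 12 places after held 1 count in each SAM library and 0 in the other 8 libraries, too few for a test. For a member with 0 counts in both SAM libraries, as 35 of the 37 had, a count of 0 allows up to 0.381 CPM in that group. A rise of such a member below that level was not detectable at this depth.

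The 193 members that were not tested are those under 50 counts over all libraries, activator libraries included, so a member raised well above that level is not among them. They summed to 12.9 CPM in SAM (95% exact Poisson interval 10.5 to 15.6), 12.9 CPM in VP64 (10.6 to 15.5), 12.3 CPM in VPR (10.5 to 14.4), 10.4 CPM in Suntag (8.63 to 12.5) and 12.1 CPM in the control (10.0 to 14.3). The largest count of any of these members in a library was 10.

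The nearest tested members did not pass the test in any comparison. Cluster 4204, of 3 transcripts and 3319 nt, is 28 places before the candidate cluster. Its level was 12.6 and 13.1 CPM for the VP64 libraries, 10.3 and 8.93 for VPR, 13.4 and 14.2 for SAM, 11.9 and 9.32 for Suntag, and 10.1 and 11.7 for the control. The SAM and VP64 libraries were above the control's and the others overlapped them or lay below. The log2 change in SAM against the control was 0.32 (95% interval -0.11 to 0.74, edgeR adjusted p = 0.391), so the interval leaves out a 2-fold rise.

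Cluster 4247, of 12 transcripts and 3174 nt, is 15 places after the candidate cluster and is the closest tested member. Its level was 7.47 and 4.22 CPM for VP64, 5.69 and 5.91 for VPR, 11.4 and 8.12 for SAM, 7.15 and 10.0 for Suntag, and 5.58 and 10.7 for the control. The 2 control libraries lay far apart, with libraries of the other groups between and beyond them. The log2 change in SAM was 0.18 (95% interval -0.48 to 0.85, edgeR adjusted p = 0.79) and turned negative without SAM replicate 1 (-0.06) or without control replicate 1 (-0.18). In VPR and Suntag, the other groups in which the candidate cluster was high, it was -0.43 (-1.10 to 0.24, edgeR adjusted p = 0.473) and 0.07 (-0.57 to 0.71, edgeR adjusted p = 0.941).

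Of the 22 tested members within 50 places, 1 was called in any of the 4 comparisons with the control. It lies 46 places after the candidate cluster, was singled out after its values were seen, and rose in SAM by 0.32 ± 0.09 on the log2 scale (SE, edgeR adjusted p = 0.0431). The call ended with the replicate number as a block (edgeR adjusted p = 0.0609), with no filter on low counts (0.0702) and in DESeq2 (0.0923). It also ended without SAM replicate 1 (0.203) or 2 (0.196), control replicate 1 (0.249) or 2 (0.097), or VP64 replicate 1 (0.0709) or 2 (0.0707), at log2 changes from 0.26 to 0.38. In SAM alone, 1 of 22 is near the share of 4.82% of all 13606 tested clusters called there. Over the 4 comparisons with the control, 10.4% of all tested clusters were called at least once. The median log2 change of the 22 was 0.037 in SAM, -0.032 in VPR, -0.023 in VP64 and 0.0087 in Suntag, and single values ran from -0.60 to 0.86.

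**Figure D2:**
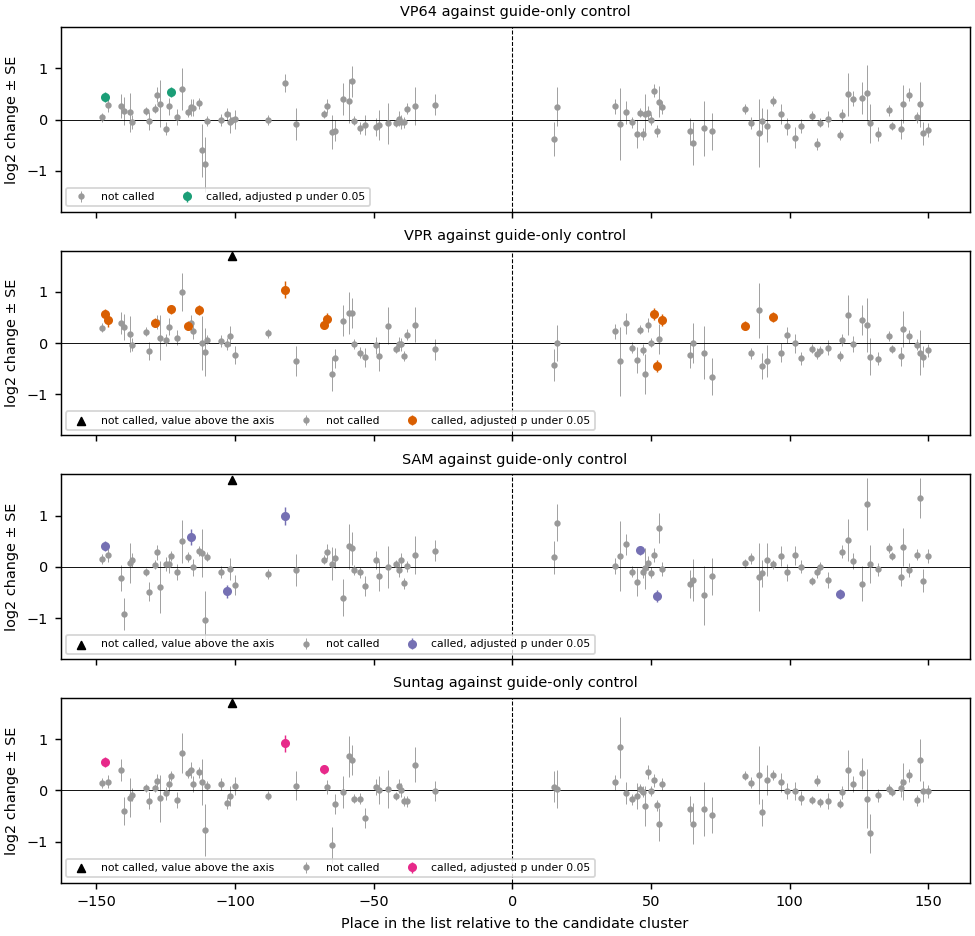
Log2 change against the guide-only control (± SE) of the 103 tested members by place in the list relative to the candidate cluster (dashed line), 1 panel per activator. Coloured points passed the test (edgeR adjusted p under 0.05), grey points did not, and a triangle marks a cluster above the axis that did not pass; 1 coloured point lies within 50 places, in SAM.

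Across the whole window most members were not called. In the 4 comparisons with the control, 18 of the 103 tested members were called at least once (17.5%), beside 10.4% of all tested clusters. With the comparisons against VP64 22 were (21.4%), beside 12.3%, so 81 were never called. The median log2 change of the members was 0.016 in VP64, 0.013 in VPR, 0.055 in SAM and 0.027 in Suntag, beside medians over all tested clusters of 0, -0.0071, 0.013 and 0.00061. For 83, 78, 81 and 82 of the 103 members the 95% interval of the change in these groups left out a 2-fold change in either direction. The members' tested levels resembled those of the table, with a median of 20.6 TPM against 17.6 TPM over all tested clusters, and a range from 0.295 to 2288 TPM. TPM is a level per transcript length, scaled to the same total in every library.

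VPR had the most called members. Against the control 14 of 103 were called (13.6%), 13 higher and 1 lower, beside 6.38% of all tested clusters called in either direction, 4.62% higher and 1.76% lower. The changes were small, from 0.34 to 1.04 in size on the log2 scale, and 1 member reached 2-fold, where 0.235% of all clusters did. Of the 13 higher members, 9 lay before the candidate cluster, all at 51 or more places, and 4 after it, at 51 or more places too. The count fell to 4 without VPR replicate 1, to 6 without control replicate 1 and to 5 without control replicate 2, while that over all clusters fell from 868 to 148, 282 and 200.

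The higher members in VPR had shorter transcripts, as did higher clusters across the table. Their median length was 1497 nt, against 2567 nt over the tested members and 2848 nt over all tested clusters. Among members of 700 to 1500 nt 6 of 20 were higher in VPR, beside 18.1% of all clusters of that length. Among those of 1500 to 3000 nt 12.8% were (5 of 39), beside 3.33%, and among those over 3000 nt 2.38% (1 of 42), beside 0.488%. The members listed before the candidate cluster had a median length of 1906 nt and those after it 3141 nt, and the median log2 change in VPR was 0.17 and -0.09 on these sides. With each library's trend on length removed, 4 members were called in VPR, all higher and all among the 14 (3.88% of members), beside 85 of all clusters (0.625%). Whether length sets the members' count was not tested further.

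**Figure D3:**
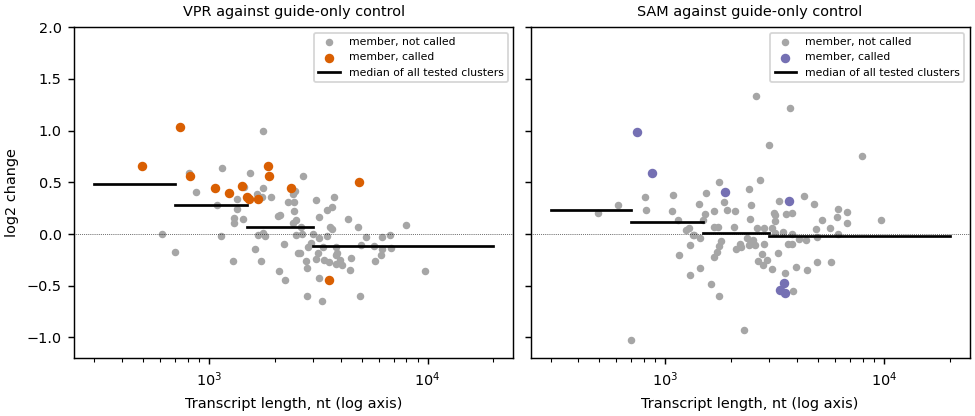
Log2 change against the guide-only control of the tested members by transcript length (log axis) in VPR and SAM. Coloured points passed the test, and black bars are the median change of all 13606 tested clusters by length class; in VPR 12 of the 13 higher members are under 3000 nt. Not drawn are the cluster above the axis in the plot of changes by place and 1 cluster longer than the axis.

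SAM, which gave the highest level of the candidate cluster, called 7 of 103 members against the control (6.80%), 4 higher and 3 lower, beside 4.82% of all clusters, 2.19% higher and 2.63% lower. No member reached 2-fold among those called, where 0.617% of all clusters did. The higher members had a median length of 1380 nt and the lower ones 3486 nt. Every library of the 2 groups was needed for most of these calls, with 1 left without SAM replicate 1, 0 without SAM replicate 2, 1 without control replicate 1, 2 without control replicate 2, 4 without either VP64 library and 4 with the replicate number as a block. Over all clusters the same settings took 656 calls to 63, 103, 139, 189, 441 and 446, and 551.

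Suntag called 3 members, all higher (2.91%), beside 1.28% of all clusters, 0.948% higher and 0.331% lower. VP64 called 2, both higher (1.94%), beside 0.801% of all clusters, 0.647% higher and 0.154% lower. No called member reached 2-fold in either, where 0.11% and 0.0735% of all clusters did. Without control replicate 1 or 2 Suntag had 1 and 0 calls, and it had 2 without either VP64 library and 6 without either Suntag library. Over all clusters its 174 calls became 32 and 8, 71, and 395 and 203 in these settings. VP64 had 0 calls without either of its own or either control library, 1 without either SAM library and 6 without either Suntag library. Over all clusters its 109 calls became 0 and 0, 35 and 3, 81 and 80, and 371 and 372. By edgeR at an unadjusted p under 0.05 the numbers were 21 in Suntag and 16 in VP64 (20.4% and 15.5% of members), against 15.4% and 14.1% of all clusters.

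Cluster 4150, of 1 transcript of 742 nt, had the largest change among called members and lies 82 places before the candidate cluster. Its level was 26.8 and 26.2 CPM for the control, 56.3 and 41.6 for Suntag, 50.8 and 52.0 for VPR, 45.1 and 60.4 for SAM, and 40.0 and 43.7 for VP64. All 8 activator libraries lay above both control libraries, and the fitted fold ran from 1.64 in VP64 to 2.06 in VPR. Part of this separation follows from naming called members whose groups did not overlap. The log2 change was 1.04 ± 0.16 in VPR (SE, edgeR adjusted p = 0.00248), 0.99 ± 0.17 in SAM (0.00559) and 0.92 ± 0.17 in Suntag (0.0188). In VP64 it was 0.71 ± 0.17, which did not pass (edgeR adjusted p = 0.0704).

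These 4 comparisons share the 2 control libraries, so they do not stand for 4 separate observations of cluster 4150. Against VP64, without the control libraries in the difference, its log2 value was 0.33 in VPR (95% interval -0.01 to 0.66), 0.27 in SAM (-0.08 to 0.63) and 0.21 in Suntag (-0.13 to 0.55), and none passed (edgeR adjusted p = 0.603, 0.363 and 0.58). The call in SAM ended without SAM replicate 2 (0.73, edgeR adjusted p = 0.101). That in Suntag ended without control replicate 1 (0.95, edgeR adjusted p = 0.0817) or 2 (0.89, 0.161). With the length trend removed the changes were 0.64 in VPR (edgeR adjusted p = 0.0499), 0.81 in SAM and 0.68 in Suntag, the last no longer called (edgeR adjusted p = 0.0713). The call in Suntag also ended in a fit of the compared groups alone (edgeR adjusted p = 0.108). DESeq2 gave the cluster no adjusted p in Suntag against the control, so it could not be called there.

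A cluster of 10 transcripts with a mean length of 1883 nt, singled out after its values were seen, was the 1 member called in all 4 activators. It held 82.4 and 75.1 CPM for the control, 101 and 103 for VP64, 117 and 103 for VPR, 106 and 106 for SAM, and 109 and 117 for Suntag. The activator libraries lay within 101 to 117 CPM, all above the control's. The log2 change was 0.44 ± 0.10 in VP64, 0.56 ± 0.09 in VPR, 0.41 ± 0.10 in SAM and 0.56 ± 0.09 in Suntag (SE, edgeR adjusted p = 0.0484, 0.00312, 0.0284 and 0.0164), against the same control libraries. It did not differ from VP64 by the test in VPR, SAM or Suntag, with log2 differences of 0.13 (95% interval -0.07 to 0.32), -0.03 (-0.24 to 0.18) and 0.12 (-0.08 to 0.32). Lying 147 places before the candidate cluster, it is near the edge of the window.

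The calls of that cluster rested on control replicate 2, and those in VP64 and SAM on control replicate 1 too. Without control replicate 2 none of the 4 stood, at edgeR adjusted p = 0.319 in VP64, 0.0604 in VPR, 0.191 in SAM and 0.164 in Suntag, and without control replicate 1 those in VP64 (0.107) and SAM (0.0722) ended. The call in SAM also ended without SAM replicate 1 (0.143) or 2 (0.165). That in VP64 ended without VP64 replicate 1 (0.299) or 2 (0.306), without SAM replicate 1 (0.0741) or 2 (0.0745), and with the replicate number as a block (0.0621). With the length trend removed the log2 changes were 0.40, 0.45, 0.36 and 0.48 in this order of groups, and those in VPR and SAM passed. The call in Suntag also ended in a fit of the compared groups alone (edgeR adjusted p = 0.127). That in VP64 ended with RLE factors (edgeR adjusted p = 0.0519).

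Cluster 4109, of 1 transcript of 493 nt, was the most abundant member, at 2288 TPM over the 10 libraries, with the next at 606 TPM. It held 341 and 356 CPM for the control, 496 and 476 for VP64, 537 and 500 for VPR, 386 and 430 for SAM, and 446 and 380 for Suntag. The activator libraries were all above the control, with VP64 and VPR highest. It rose in VPR by 0.66 ± 0.09 and in VP64 by 0.54 ± 0.10 on the log2 scale (SE, edgeR adjusted p = 0.00148 and 0.0203), and its changes in SAM and Suntag were 0.21 and 0.28 (edgeR adjusted p = 0.229 and 0.16). With the length trend removed the values were 0.14 in VPR and 0.19 in VP64, and neither passed (edgeR adjusted p = 0.393 and 0.286). The call in VP64 ended without VP64 replicate 1 (0.172) or 2 (0.175) or control replicate 1 (0.115) or 2 (0.152). On TPM, which takes in effective length, its level was 1975 ± 62.8 in the control, 2558 ± 31.3 in VP64, 2622 ± 79.3 in VPR, 2175 ± 67.3 in SAM and 2107 ± 220 in Suntag (SD, n = 2 each).

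Among lower members, cluster 4284, of 3 transcripts and 3534 nt, lies 52 places after the candidate cluster. Its level was 127 and 127 CPM for the control, 98.5 and 111 for VP64, 90.3 and 87.0 for VPR, 92.9 and 82.3 for SAM, and 86.7 and 117 for Suntag. Every activator library was below both control libraries, and part of this follows from the same rule for naming members. It fell by 0.57 ± 0.12 in SAM and by 0.44 ± 0.11 in VPR on the log2 scale (SE, edgeR adjusted p = 0.0148 and 0.0303). The changes in Suntag and VP64 were -0.29 and -0.23 (edgeR adjusted p = 0.214 and 0.398).

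The calls of cluster 4284 ended when a library of either side was left out. In SAM these were SAM replicate 1 (edgeR adjusted p = 0.0686) or 2 (0.149) and control replicate 1 (0.0758) or 2 (0.0653). In VPR they were VPR replicate 1 (0.117) or 2 (0.123) and control replicate 1 (0.112) or 2 (0.128). With the length trend removed the call in SAM stood at -0.56 (edgeR adjusted p = 0.0122), and that in VPR was -0.37 (0.151).

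Cluster 4129, of 11 transcripts and 3486 nt, lies 103 places before the candidate cluster and was lower in SAM. Its level was 34.9 and 42.0 CPM for SAM, 54.1 and 52.4 for the control, 57.9 and 50.96 for VP64, 51.9 and 47.7 for VPR, and 42.0 and 45.7 for Suntag. The SAM libraries lay below those of the control, VP64 and VPR and just below the lower Suntag library. It fell by 0.48 ± 0.12 against the control and by 0.59 ± 0.13 against VP64 (SE, edgeR adjusted p = 0.0386 and 0.0207). The call against the control ended with the replicate number as a block (edgeR adjusted p = 0.0514) and in DESeq2 (0.0868). It ended without SAM replicate 1 (0.25) or 2 (0.0746), control replicate 1 (0.157) or 2 (0.111) or VP64 replicate 1 (0.0532) or 2 (0.0533). The call against VP64 ended without SAM replicate 1 (0.171) or 2 (0.0571) or VP64 replicate 1 (0.223) or 2 (0.0671).

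The log2 differences from VP64 are not taken against the control libraries. Those libraries still enter these tests through the estimate of the spread, the scaling of the libraries and the minimum summed count. The candidate cluster held 0 counts in both VP64 libraries. SAM against VP64 called 4 of 103 members (3.88%), 1 higher and 3 lower, beside 4.19% of all clusters, 1.57% higher and 2.62% lower, so the members' share is near the background. Without either SAM or either VP64 library 0 of these were called, and without Suntag replicate 1 or 2 there were 8 and 9 calls. Over all clusters 570 calls became 28 and 38, 11 and 51, and 935 and 950. VPR against VP64 called 0 members by edgeR, beside 0.00735% of all clusters, and DESeq2 called 0, beside 0.0367%. DESeq2 gave clusters 4129, 4150, 4204, 4247, 4284 and 4342 and the member called in all 4 activators no adjusted p in this comparison. DESeq2 could therefore not call these, and the number of other clusters without an adjusted p is not given here. At an unadjusted p under 0.05 edgeR had 9 (8.74%), beside 8.50% of all clusters. Suntag against VP64 called 1 member, cluster 4342, beside 0.235% of all clusters (0.118% higher), and 5 without Suntag replicate 1 (549 of all clusters, from 32). At 2-fold no member was called in either, beside 0.514% and 0.022% of all clusters. None of the 5 calls in these comparisons lay within 100 places of the candidate cluster.

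Cluster 4342, of 3 transcripts and 3821 nt, lies 110 places after the candidate cluster. Its level was 28.9 and 30.4 CPM for VP64, 32.5 and 37.3 for VPR, 41.0 and 40.0 for SAM, 47.3 and 48.3 for Suntag, and 42.5 and 43.1 for the control. The VP64 libraries were the lowest and the Suntag libraries the highest, with the control between them. Suntag exceeded VP64 by 0.66 ± 0.12 on the log2 scale (SE, edgeR adjusted p = 0.0231). In DESeq2 the log2 difference was 0.66 as well, without an adjusted p, so the cluster could not be called there. Against the control the change was 0.19 in Suntag and -0.47 in VP64, and neither passed (edgeR adjusted p = 0.412 and 0.0774). The call ended without VP64 replicate 1 (0.387) or 2 (0.159) or Suntag replicate 2 (0.0775), and in a fit of these 2 groups alone (0.0585).

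**Figure D4:**
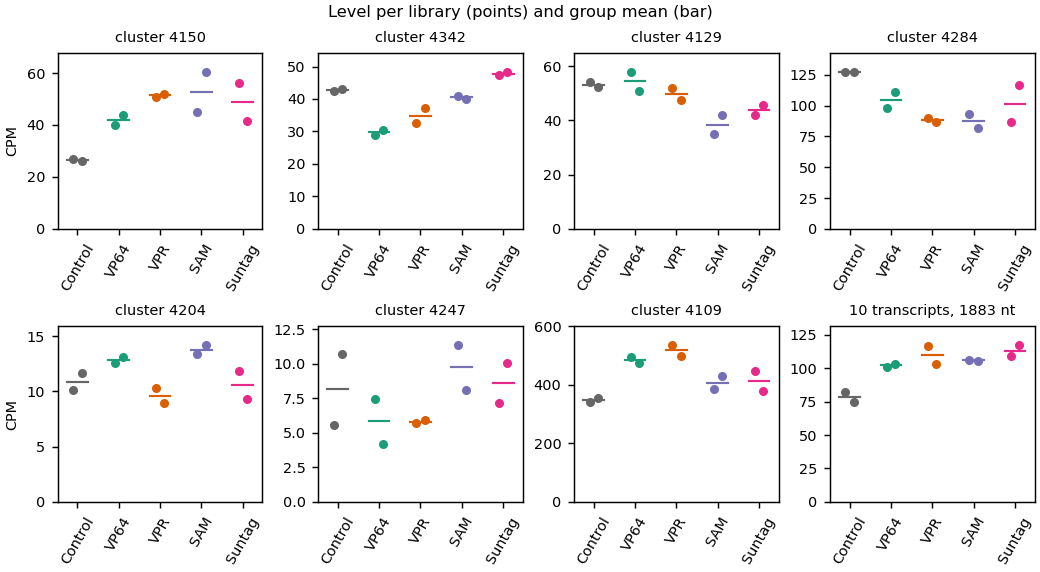
CPM per library (points) and mean per group (bar) of the named members and of the member of 10 transcripts called in all 4 activators. In cluster 4150 all 8 activator libraries lie above the control, in cluster 4284 all 8 lie below it, and in clusters 4204 and 4247, the nearest tested ones, no activator group passed the test. Part of the separation in 4150 and 4284 follows from naming members whose groups did not overlap.

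The largest fitted changes of a member did not pass the test and went with reads divided between adjacent clusters. A cluster of 1 transcript of 1402 nt, chosen after its values were seen, had log2 changes of 6.77 in Suntag, 6.01 in SAM and 5.21 in VPR (edgeR adjusted p = 0.0912, 0.124 and 0.203), fitted against 0 counts and so no measure of size. It held 12.29 and 17.8 counts in Suntag, 0 and 12.57 in SAM, 0 and 11.45 in VPR, and 0 in the VP64 and control libraries. The cluster listed just before it, of 3 transcripts and 1440 nt, held 98.71 and 92.2 counts in Suntag. The sums of the pair were whole to 0.01 in both Suntag libraries, SAM replicate 2 and VPR replicate 2, where the member held counts. They were whole in the other libraries too, but there the sum is the neighbour's own count and says nothing on divided reads. The summed level was 19.5 ± 0.251 CPM in Suntag, 19.6 ± 5.46 in SAM, 20.5 ± 4.55 in VPR, 17.1 ± 0.348 in VP64 and 18.5 ± 2.49 in the control (SD, n = 2 each). The ratio of the sums to the control was 1.04 in Suntag (95% exact interval 0.858 to 1.27), 1.07 in SAM (0.865 to 1.33) and 1.06 in VPR (0.88 to 1.29), and these intervals cover counting error only, without the spread between libraries given above. Counts were whole in all libraries for 26 of the 103 tested members and for 3 of the 22 that were called, so the level of the others may include reads shared with other clusters.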

How the data were processed

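Per the submitters' processing notes, reads were processed with RSEM 1.2.1 and the hg19 build. No source used here names the transcript annotation. Per the file headers, the authors deposited for each library the expected count of each cluster, an estimated count that divides reads between transcripts, with TPM and lengths in nt (the other deposited units). The library preparation in the labels' protocols does not mark strand, so overlapping and antisense genes cannot be told apart.

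Expected counts were rounded and tested with edgeR 4.0.16 (R 4.3.3) by the quasi-likelihood F test. All 13606 clusters with a summed count of at least 50, cluster 4232 and the members included, entered 1 fit of all 10 libraries with TMM factors and a coefficient per group. Adjustment over all of these followed Benjamini and Hochberg, with a threshold of 0.05. SE is the log2 change divided by the square root of F, and 95% intervals use the fit's degrees of freedom. Whole means within 0.01.

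The members, comparisons and lists were chosen with earlier results of these data known. Named members are called ones with a mean of at least 1 CPM and groups that do not overlap, ranked by size of change, at most 2 higher and 2 lower because names are lacking, with the nearest tested members and the most abundant one. Alternatives were RLE factors, DESeq2 1.42.0, other low-count filters, the compared groups alone, a replicate block, each library left out, a 2-fold minimum, the length trend removed by loess, and a window of 50 places. The sum of adjacent clusters was added after seeing the data.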

Additional observations from a re-analysis of the deposited data

Results flagged for a closer look

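A tested difference between 2 activators drew attention to 5 members, since each comparison with VP64 tests whether 2 activators differ. Cluster 4129 was lower in SAM than in VP64, with a log2 difference of -0.59, and cluster 4342 was higher in Suntag than in VP64, with 0.66. The other 3 were between SAM and VP64. A cluster of 2515 nt differed by -0.54 (26.2 ± 0.409 CPM in SAM, 35.9 ± 0.819 in VP64 and 27.0 ± 2.79 in the control, SD, n = 2 each). A cluster of 4957 nt differed by -0.35 (140 ± 0.378, 168 ± 9.12 and 167 ± 1.98 CPM in the same order). A cluster of 3800 nt differed by 0.34 (1036 ± 21.3, 774 ± 16.1 and 884 ± 5.77 CPM). By edgeR the adjusted p was 0.0397, 0.0309 and 0.0309 for these 3, and none of the 4 SAM calls stood without any 1 of the SAM or VP64 libraries.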

How the results depend on the processing

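The number of members called depended on the settings, and so did that over all clusters. With no filter on low counts 175 members and 20300 clusters were tested, in place of 103 and 13606. In that fit 4% of members were called in VP64, 6.86% in SAM and 5.71% in Suntag. In VPR 9.14% were, beside 6.78% of all clusters. Against VP64 it was 6.29% in SAM and 2.86% in Suntag. For VP64 against the control (2 calls) it was 1 with RLE factors, 1 with the replicate block, 7 with no filter on low counts, 8 with the compared groups alone, 4 in DESeq2 and 0 with the length trend removed, where 0.786%, 0.529%, 2.62%, 4.55%, 1.24% and 0.14% of all clusters were called. For VPR (14) it was 4 with the length trend removed (0.625% of all clusters) and 1 at a minimum of 2-fold, and for SAM (7) it was 12 with no filter (6.26%), 4 with the replicate block (4.05%), 4 in DESeq2 (2.47%) and 0 at 2-fold. For Suntag (3) it was 10 with no filter (2.87%) and 0 with the compared groups alone (0.0588%) or the length trend removed (0.0955%). SAM against VP64 (4) had 11 with no filter (5.93%) and 11 with the compared groups alone (11.3%), and Suntag against VP64 (1) had 5 (2.59%), 0 (0.213%) and, in DESeq2, 2 (0.779%). The 2 calls in DESeq2, 1 higher and 1 lower, did not include cluster 4342, which had no adjusted p there. VP64, Suntag and both comparisons with VP64 that had calls gave 0 at 2-fold. Within 50 places the calls were 0 in VP64, VPR, Suntag and the comparisons with VP64, and 1 in SAM.

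Leaving out 1 library gave 0 to 6 calls in VP64, 4 to 16 in VPR, 0 to 9 in SAM and 0 to 6 in Suntag, and 0 to 9, 0 to 0 and 0 to 5 in SAM, VPR and Suntag against VP64. The median log2 change ranged from 0.0119 to 0.095 in VP64, 0.0043 to 0.055 in VPR, 0.0182 to 0.0619 in SAM and 0.0166 to 0.0655 in Suntag, and from -0.0152 to 0.012, 0.0006 to 0.0497 and -0.078 to -0.0127 in SAM, VPR and Suntag against VP64. Medians moved by more than the spread between replicates within 50 places, to -0.0231 in VP64, -0.0322 in VPR, and against VP64 -0.0379 in VPR and 0.0248 in Suntag. They also did so for VPR in DESeq2 (0.0446), for SAM (0.0083) and Suntag (-0.0156) with the length trend removed, and with no filter for SAM against the control (0) and Suntag against VP64 (0).

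The replicate numbers pair no cultures by the labels, and the correlation of same-numbered libraries' deviations ran from -0.06 to 0.05 over 10 pairs of groups. With the replicate block the calls were 1 in VP64, 12 in VPR, 4 in SAM and 3 in Suntag, and 4, 0 and 1 against VP64. Of all clusters 0.529%, 5.78%, 4.05% and 0.831% were called with the block, and 3.28%, 0.00735% and 0.235% against VP64. The change of cluster 4247 in SAM turned to -0.0568 and -0.1754 without SAM or control replicate 1, and ran up to 0.7437 without control replicate 2. The cause of these moves was not tested. Depth limits the untested members, of which 121 had no counts.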
